A study of Mus musculus with 6 samples.

Results

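Reelin signalling and the Cajal-Retzius cells that supply reelin were described through 10 genes in the cortex of newborn mice. The genes were taken by symbol: Reln, Dab1, Lrp8, Vldlr, Trp73, Lhx1, Lhx5, Ebf3, Nhlh2 and Ndnf. They are 10 of the 53379 genes in the count table, and all 10 were among the 21244 genes kept for testing by a filter on low counts. Cortex was taken on postnatal day 0 from Npas3+/- mice, heterozygous for the transcription factor gene Npas3, and from wild-type (WT) mice, with 3 libraries of each. All libraries carried the strain label C57BL/6, and RNA of the tissue was sequenced in bulk. The labels do not give the allele or its construction. Nor do they state whether the 3 libraries of a genotype stand for 3 animals, so each p-value covers the spread among libraries, which may be technical.

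Reelin is a large protein secreted at the surface of the developing cortex. It binds the receptors VLDLR and LRP8 (also called ApoER2) on migrating neurons, the adaptor DAB1 inside the cell is then phosphorylated by SRC-family kinases, and the signal guides neurons into layers. Cajal-Retzius cells, early neurons of the marginal zone, are the main embryonic source, and many of them are lost after birth; GABAergic interneurons make reelin as well. The p73 protein encoded by Trp73 is needed for survival of Cajal-Retzius cells, and Lhx1, Lhx5, Ebf3 and Nhlh2 encode transcription factors expressed in them.

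The promoter windows of Reln and Nhlh2 are shown because these were the 2 of the 10 genes in which every Npas3+/- library lay below every WT library. NPAS3 belongs to a family of basic helix-loop-helix proteins, whose binding sites share the letters CANNTG or, for many members of its PAS branch, a core of ACGTG. Windows held the 250 bases before the RefSeq transcript start on GRCm38.p6, and are written 5′ to 3′ on the strand of the gene. Of the Nhlh2 window the 181 bases before the GENCODE gene are shown. Capitals mark CANNTG.
Reln, chr5:22344706-22344955, minus strand: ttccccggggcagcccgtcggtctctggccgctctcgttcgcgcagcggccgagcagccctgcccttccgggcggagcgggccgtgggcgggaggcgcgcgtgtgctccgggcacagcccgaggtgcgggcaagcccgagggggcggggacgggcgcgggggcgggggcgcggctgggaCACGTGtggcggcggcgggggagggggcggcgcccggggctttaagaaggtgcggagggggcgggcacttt
Nhlh2, chr3:102009895-102010075, plus strand: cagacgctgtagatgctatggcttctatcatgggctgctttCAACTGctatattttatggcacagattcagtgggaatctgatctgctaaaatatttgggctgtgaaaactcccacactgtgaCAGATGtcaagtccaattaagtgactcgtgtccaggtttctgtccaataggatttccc
The Reln window held a single CANNTG, the palindrome CACGTG, which begins 71 bases before the start and contains ACGTG on both strands. In the Nhlh2 window there were 2 matches, CAACTG and CAGATG, and no ACGTG. RefSeq windows were matched for 8 of the 10 genes, 13 windows in all, and were not used for Lhx5 and Ndnf. Searched on both strands, ACGTG was in 1 of these 13 windows, that of Reln, against 16.6% of 32851 windows of all genes. CACGTG occurred in 6.02% of all windows and CANNTG, which includes it, in 66.2%. CANNTG was in 9 of the 13. The letters TCACACC, the core bound by T-box factors such as TBR1, were in 0 of the 13 and in 3.33% of all windows. Each match is a string of letters and not a measured binding site.

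Library totals ran from 67378231 to 87811574 counts. Npas3 itself stood at 15.0, 14.1 and 8.61 CPM (read counts relative to the depth of the library) in Npas3+/- replicates 1 to 3, against 23.4, 28.4 and 25.7 CPM in the WT replicates, so the groups did not overlap. The log2 fold change of Npas3 was -1.04 (SE 0.20, with an adjusted p of 0.270 in edgeR and 1.75e-04 in DESeq2; 1.75e-04 to 0.601 over the alternatives). Markers of cortical projection neurons were high in every library, among them the neuronal transcription factor gene Neurod2 at 617 to 708 CPM in Npas3+/- cortex and 503 to 698 CPM in WT. Of 13 markers of the thalamus and hypothalamus, 8 had no read in at least 1 library. Xist, the RNA of the inactive X chromosome, reached 3667 CPM in Npas3+/- replicate 2, whereas no other library exceeded 2.03 CPM. Without that library, the log2 fold change was -0.44 for Reln, -0.31 for Nhlh2 and -0.28 for Ndnf.

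Of the 10 genes, 7 were lower in Npas3+/- cortex and 3 were higher. Their median log2 fold change of Npas3+/- over WT was -0.35; across all genes tested the median was -0.01 and 51.8% were lower. The 6 Cajal-Retzius genes all had negative fold changes (median -0.42, or -0.31 without the library with Xist), and so did Reln, while Dab1 and Vldlr differed by little and Lrp8 was high in 1 library. At a Benjamini-Hochberg adjusted p under 0.05 in edgeR's quasi-likelihood test, 0 of the 10 passed, against 0.0377% of all genes, 0.00941% lower and 0.0282% higher. At an unadjusted p under 0.05, 3 of the 10 were lower, namely Reln, Ndnf and Nhlh2, against 5.84% of all genes lower and 6.29% higher at that p. DESeq2, run as an alternative, called 1 of the 9 members with an adjusted p, Reln, against 3.4% of all genes with an adjusted p, 1.51% lower and 1.88% higher. limma-voom called 0 of the 10, against 0.0424% of all genes. All Npas3+/- values were below all WT values for 2 of the 10, Reln and Nhlh2, against 9.18% of all genes; for 9.7% of all genes they were above. The members were chosen with earlier results of these data known, so these counts are descriptions.

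**Figure D1:**
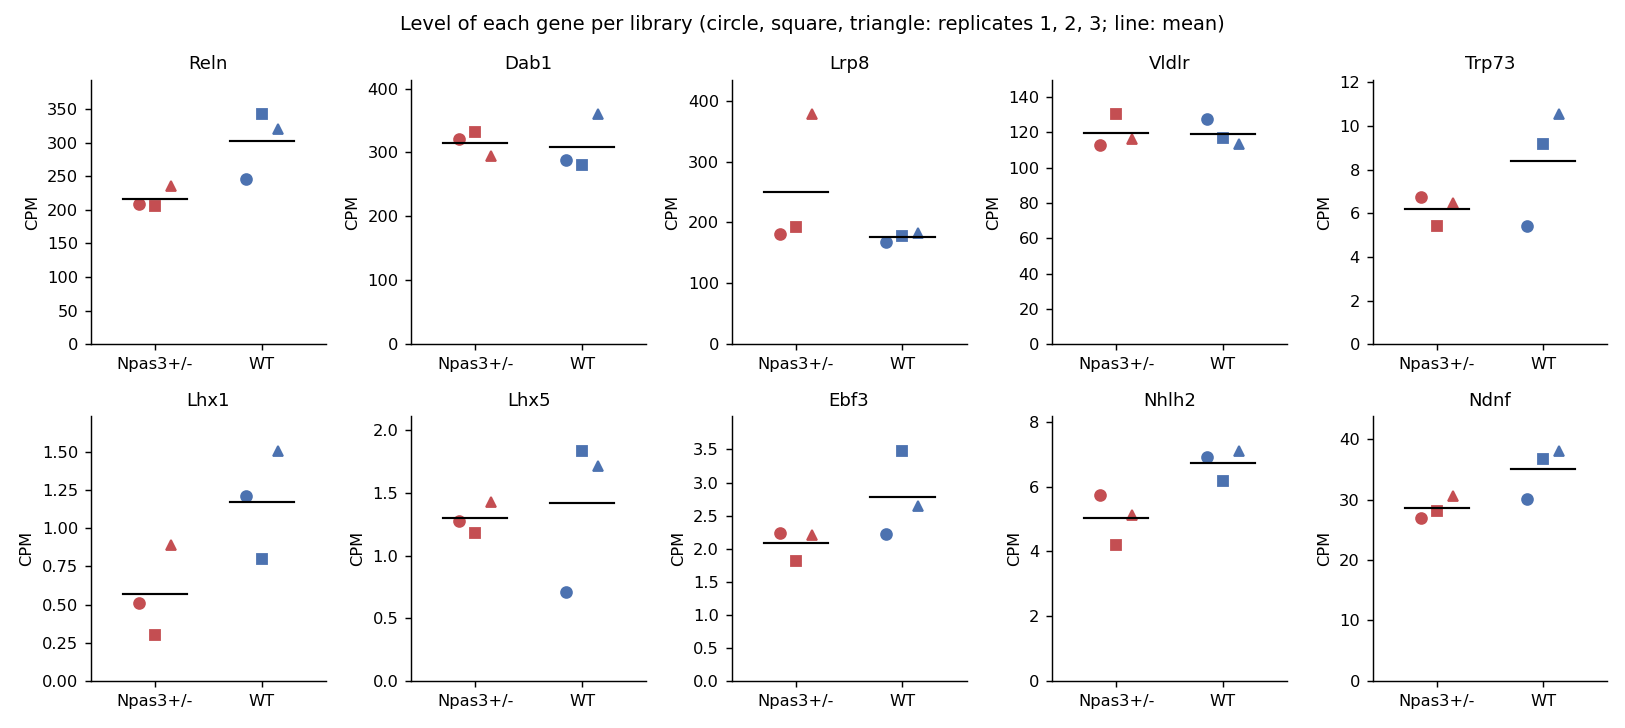
Level in CPM of each of the 10 genes in each library, Npas3+/- left and WT right; symbols mark the replicate number and lines the mean of 3 libraries. Reln and Nhlh2 separate the genotypes, and Lrp8 stands at 378 CPM in Npas3+/- replicate 3 against 168 to 192 CPM in the other libraries.

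Reln (ENSMUSG00000042453, mm10 chromosome 5, 21884454 to 22344702, minus strand, 67 exon blocks) encodes the ligand. Its level was 209, 205 and 235 CPM in Npas3+/- replicates 1 to 3, against 245, 342 and 320 CPM in WT replicates 1 to 3. All Npas3+/- libraries were below all WT libraries, but WT replicate 1 lay only just above the highest Npas3+/- library. The mean in Npas3+/- cortex was 71.6% of that in WT, and the log2 fold change was -0.48 (SE 0.12). edgeR gave an adjusted p of 0.276 and DESeq2 an adjusted p of 0.0145, and over all alternatives the adjusted p ran from 0.0145 to 0.601. With 1 library left out the fold change lay between -0.61, when WT replicate 1 was dropped, and -0.38, when WT replicate 2 was. In bulk tissue, fewer cells that make reelin and less Reln RNA in each such cell cannot be told apart.

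Vldlr, a receptor gene, and Dab1, the adaptor gene, differed between genotypes by less than the spread between libraries. Vldlr (chromosome 19, 27216484 to 27254231) was at 113, 130 and 116 CPM in Npas3+/- cortex, against 128, 117 and 113 CPM in WT, with interleaved values and a log2 fold change of 0.01 (SE 0.08). Dab1 (chromosome 4, 103619359 to 104744844) was at 321, 332 and 294 CPM in Npas3+/- cortex and 287, 280 and 360 CPM in WT. Its log2 fold change was 0.03 (SE 0.10), and the values again interleaved. The sign of both fold changes turned under some alternatives, so neither has a direction.

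Lrp8 (chromosome 4, 107802261 to 107876840), which encodes the other receptor, had the only large positive fold change of the 10, and 1 library set it. Its level was 181, 192 and 378 CPM in Npas3+/- replicates 1 to 3, against 168, 177 and 183 CPM in WT. Npas3+/- replicates 1 and 2 overlapped WT, and replicate 3 was 1.96 times the next highest library. Its log2 fold change of 0.51 (SE 0.26, edgeR adjusted p = 0.485) was 0.09 without Npas3+/- replicate 3. Of 10414 genes with a mean of at least 10 CPM, 13 exceeded 1.8 times the highest other library in that library, and 4 to 11 did so in each of the others. The adjacent gene Magoh, which encodes a part of the exon junction complex, was at 30.8 CPM in Npas3+/- replicate 3, within the 27.1 to 34.8 CPM of the other libraries. The antisense gene Lrp8os2 was at 2.49 CPM there, within 1.05 to 3.06 CPM. Neither neighbour shared the high value of Lrp8.

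**Figure D2:**
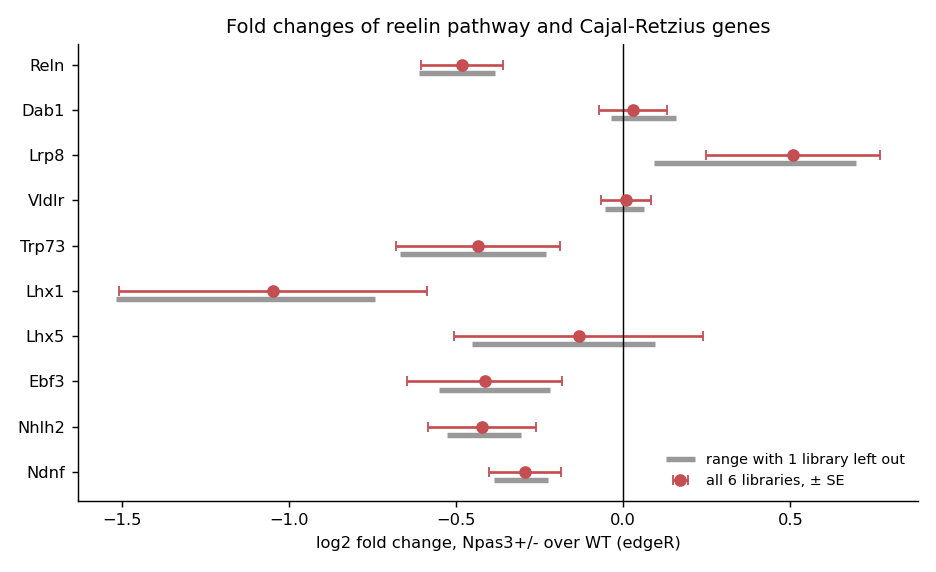
Log2 fold change of Npas3+/- over WT for each gene from edgeR with its SE (red), and the range when 1 library was left out (grey). Reln lies at -0.48 with a range of -0.61 to -0.38, and the range of Lrp8 reaches from 0.09 to 0.70.

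The transcription factor genes of Cajal-Retzius cells were lower on average in Npas3+/- cortex, by amounts near the spread between libraries. Trp73 (chromosome 4, 154056253 to 154140208) was at 6.72, 5.41 and 6.46 CPM in Npas3+/- replicates 1 to 3, against 5.39, 9.19 and 10.5 CPM in WT. WT replicate 1 was the lowest of all 6 libraries, and WT replicates 2 and 3 were above every Npas3+/- library. The log2 fold change of Trp73 was -0.43 (SE 0.25, edgeR adjusted p = 0.534), with -0.67 when WT replicate 1 was left out and -0.23 when WT replicate 3 was. Nhlh2 (chromosome 3, 102010076 to 102015492), a basic helix-loop-helix gene with a single exon block, was at 5.73, 4.19 and 5.14 CPM in Npas3+/- cortex and 6.92, 6.17 and 7.11 CPM in WT. The groups did not overlap, and the log2 fold change was -0.42 (SE 0.16, edgeR adjusted p = 0.372; 0.205 to 0.660 over the alternatives).

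Lhx1 (chromosome 11, 84518284 to 84525535), a LIM-homeodomain gene, was the rarest of the 10 and had the largest fold change. It had 45, 23 and 67 counts in Npas3+/- replicates 1 to 3, against 82, 67 and 108 counts in WT. In CPM these were 0.512, 0.299 and 0.887 in Npas3+/- cortex and 1.21, 0.798 and 1.51 in WT, so Npas3+/- replicate 3 lay above WT replicate 2. The log2 fold change was -1.05 (SE 0.46, edgeR adjusted p = 0.422), and leaving out 1 library gave -1.52 to -0.74. Its relative Lhx5 (chromosome 5, 120431699 to 120441223) had 112, 91 and 108 counts in Npas3+/- cortex, against 48, 154 and 123 counts in WT. WT replicate 1 was again the lowest and the other WT libraries the highest. The log2 fold change of Lhx5 was -0.13 (SE 0.37), and it turned to 0.10 without WT replicate 2 and 0.03 without WT replicate 3.

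Ebf3 (chromosome 7, 137193673 to 137314445), which encodes an early B-cell factor family protein, was at 2.23, 1.82 and 2.21 CPM in Npas3+/- cortex, against 2.22, 3.48 and 2.65 CPM in WT. Npas3+/- replicate 1 and WT replicate 1 were nearly level. Its log2 fold change was -0.41 (SE 0.23, edgeR adjusted p = 0.525), or -0.22 without WT replicate 2. Ndnf (chromosome 6, 65671590 to 65712326), a secreted neurotrophic factor gene of Cajal-Retzius cells that is also used by some interneurons of layer 1, was at 26.9, 28.1 and 30.6 CPM in Npas3+/- cortex. It was at 30.2, 36.7 and 38.03 CPM in WT, where replicate 1 lay below Npas3+/- replicate 3. The log2 fold change of Ndnf was -0.29 (SE 0.11, edgeR adjusted p = 0.360), and it was negative with any 1 library left out, at -0.39 to -0.22. For these 10 genes, exons of genes on the opposite strand covered at most 5.06% of the exon length, for Trp73, and the use of strand in the counting is not given in the sources used here.

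The extremes over Reln and the 6 Cajal-Retzius genes were spread over all libraries except Npas3+/- replicate 3. Npas3+/- replicate 2, the library with Xist, was the lowest for 4 of these 7 genes, WT replicate 1 for 2 and Npas3+/- replicate 1 for 1. WT replicate 3 was the highest for 4 and WT replicate 2 for 3. The summed level of the 6 Cajal-Retzius genes was 43.4, 41.0 and 46.7 CPM in Npas3+/- replicates 1 to 3, against 46.6, 58.2 and 61.5 CPM in WT. Npas3+/- replicate 3 and WT replicate 1 therefore met at the boundary, as they nearly did for Reln. Ndnf made up most of the sum in every library, at 26.9 to 30.6 CPM in Npas3+/- cortex and 30.2 to 38.03 CPM in WT. Reln relative to Trp73, as a ratio of CPM, was 31.1, 37.98 and 36.4 in Npas3+/- cortex and 45.5, 37.2 and 30.4 in WT, so the ratio overlapped. The ratio of Reln to Ndnf was 7.76, 7.30 and 7.69 in Npas3+/- cortex, against 8.13, 9.32 and 8.41 in WT, without overlap. Reln over Nhlh2 was 36.4, 49.1 and 45.8 in Npas3+/- cortex and 35.5, 55.4 and 45.03 in WT, and Reln over Ebf3 was 93.7, 113 and 106 in Npas3+/- cortex and 111, 98.4 and 121 in WT, both with overlap. Against interneuron genes, Reln over Lhx6 was 3.10, 2.84 and 2.999 in Npas3+/- cortex, below the 3.70, 3.88 and 3.89 in WT. Reln over Gad2 was 4.43, 4.11 and 2.97 in Npas3+/- cortex and 2.43, 2.81 and 3.63 in WT, so the mean ratio was higher in Npas3+/- cortex with overlap.

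Levels of different genes were compared per length, as TPM, which divide the counts by the exon length of each gene and scale every library to the same total. In Npas3+/- cortex the order was Dab1 at 136 ± 7.21 TPM, Lrp8 at 81.6 ± 36.8, Vldlr at 40.6 ± 3.04, Reln at 31.1 ± 2.67 and Ndnf at 9.64 ± 0.732 TPM (SD, n = 3). In WT it was Dab1 at 132 ± 18.6 TPM, Lrp8 at 56.6 ± 2.44, Reln at 43.1 ± 7.28, Vldlr at 40.0 ± 2.55 and Ndnf at 11.7 ± 1.41 TPM (SD, n = 3). The adaptor and the receptors, which migrating neurons carry, averaged above the ligand in Npas3+/- cortex. Vldlr and Reln did not overlap in Npas3+/- cortex, where Vldlr was higher, and did overlap in WT. The transcription factor genes came last in both genotypes, with Trp73 at 3.82 ± 0.439 TPM in Npas3+/- and 5.11 ± 1.63 TPM in WT and Lhx1 at 0.476 ± 0.255 TPM in Npas3+/- and 0.972 ± 0.293 TPM in WT (SD, n = 3). Trp73 and Nhlh2 overlapped in both genotypes, as did Ebf3 and Lhx1, and Lhx5 overlapped Ebf3 in WT.

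**Figure D3:**
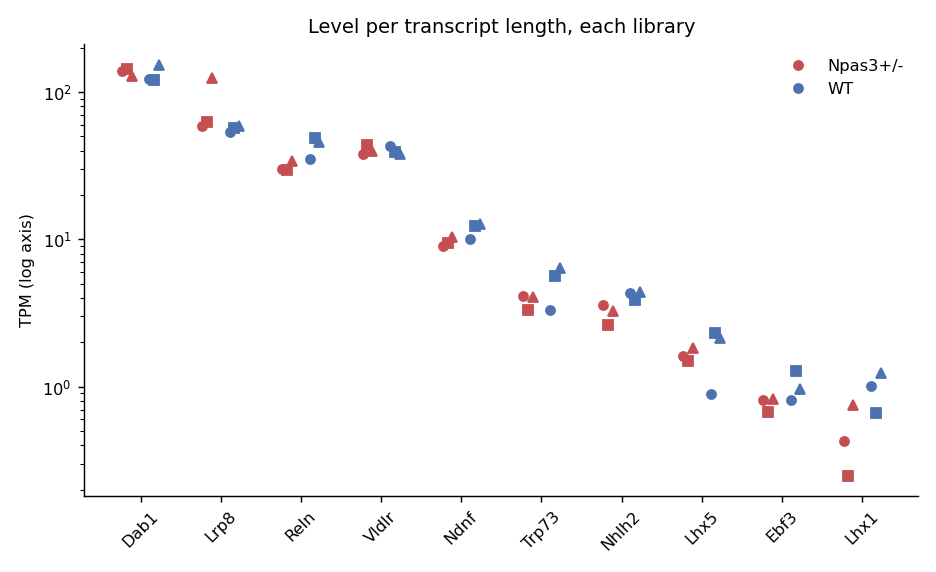
Level in TPM of each gene in each library on a log axis, Npas3+/- left of WT, ordered by the WT mean; symbols mark replicates 1 to 3 as circle, square and triangle. Dab1 averages 136 TPM in Npas3+/- cortex and 132 TPM in WT, and Lhx1 averages 0.476 TPM in Npas3+/- cortex and 0.972 TPM in WT.

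Other genes known in Cajal-Retzius cells were mostly lower as well. Of 16 such genes 15 were tested, and all 15 had negative log2 fold changes, with a median of -0.36 against -0.01 for all genes. Cacna2d2 and Zic2 were near 0, at -0.008 and -0.013. With 1 library left out the sign turned for some, up to 0.03 for Cacna2d2, 0.005 for Zic1 and 0.17 for Zic2. It also turned for Zic4, up to 0.05, and Barhl2, up to 0.25, so these genes have no firm direction. Of all genes tested, 51.8% were lower. In edgeR 0 of the 15 passed over all genes. At an unadjusted p under 0.05 there were 3 of the 15, all lower, against 5.84% of all genes lower. DESeq2 called 2 of 12 with an adjusted p, both lower, against 1.51% of all genes lower and 1.88% higher. limma-voom called 0. The median was -0.56 without Npas3+/- replicate 1 and -0.23 without Npas3+/- replicate 2, the library with Xist. Their summed level was 155, 141 and 166 CPM in Npas3+/- replicates 1 to 3, against 192, 212 and 186 CPM in WT, without overlap. Nr2f2, a nuclear receptor gene also used by interneurons, was at 14.7, 13.3 and 20.37 CPM in Npas3+/- cortex and 20.35, 30.9 and 30.03 CPM in WT (log2 fold change -0.75, SE 0.21, adjusted p 0.276 in edgeR and 0.0173 in DESeq2). Thsd7b, a thrombospondin-domain gene, was at 10.7, 8.53 and 9.22 CPM in Npas3+/- cortex and 13.2, 13.2 and 12.9 CPM in WT (log2 fold change -0.46, SE 0.12, adjusted p 0.276 in edgeR and 0.0296 in DESeq2). Over the alternatives the adjusted p ran from 0.0173 to 0.611 for Nr2f2 and from 0.0296 to 0.601 for Thsd7b. Zic5, a zinc finger gene, had a log2 fold change of -0.36 (SE 0.20), or -0.21 without Npas3+/- replicate 1 and -0.52 without Npas3+/- replicate 2. Ebf1, which striatal neurons express too, was at 1.93, 1.91 and 12.8 CPM in Npas3+/- cortex and 23.9, 34.0 and 7.44 CPM in WT (log2 fold change -1.98, SE 0.84), with WT replicate 3 below Npas3+/- replicate 3. Without Npas3+/- replicate 3 the log2 fold change of Ebf1 was -3.50. Lmx1a, a gene of the cortical hem, had no read in 5 libraries and was not tested.

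Markers of other cells and regions that express some of these genes moved with part of this pattern. The 20 interneuron markers summed to 835, 878 and 1073 CPM in Npas3+/- replicates 1 to 3, against 1058, 1157 and 1038 CPM in WT, which overlapped; 17 of the 20 were lower (median log2 fold change -0.25, with -0.45 without Npas3+/- replicate 3 and -0.14 without Npas3+/- replicate 1). The smallest p-values belonged to Gad2, Adarb2, Sst and Npy, of which only Npy was higher. Gad2, which encodes a GABA-synthesising enzyme, was at 47.2, 49.9 and 79.1 CPM in Npas3+/- cortex and 101, 122 and 88.2 CPM in WT (log2 fold change -0.82, SE 0.21; DESeq2 adjusted p 0.00363, and 0.00363 to 0.601 over the alternatives). The 10 olfactory bulb markers, a region whose mitral cells express Reln, summed to 65.0, 61.0 and 64.2 CPM in Npas3+/- cortex and 97.9, 113 and 73.5 CPM in WT, without overlap. Of the 8 tested, 6 were lower (median -0.50, or -0.79 without Npas3+/- replicate 3). DESeq2 called Pbx3 (log2 fold change -1.21, adjusted p 0.00772 to 0.621 over the alternatives) and Tshz1 (-0.61, 0.039 to 0.636), both transcription factor genes. These 2 genes made up most of the difference in the bulb sum. Pbx3 was at 9.14, 7.46 and 14.7 CPM in Npas3+/- cortex and 26.6, 32.1 and 13.7 CPM in WT. Tshz1 was at 21.9, 19.9 and 29.5 CPM in Npas3+/- cortex and 35.8, 44.1 and 29.03 CPM in WT. For both, as for the striatal sum, WT replicate 3 lay below Npas3+/- replicate 3. The 2 of the 8 tested markers that were higher were Doc2g and Shisa3. Their log2 fold changes were 0.12 (SE 0.13) and 0.21 (SE 0.54). Bulb marker levels differed widely. Doc2g was at 11.8 to 15.6 CPM in Npas3+/- cortex and 12.0 to 14.0 CPM in WT. Tbx21 was at 0.102 to 0.199 CPM in Npas3+/- cortex and 0.125 to 0.488 CPM in WT, and Lbhd2 was at 0 in all libraries except WT replicate 2, with 0.0953 CPM. Cdhr1, a mitral cell cadherin gene, was at 0.884 to 2.37 CPM in Npas3+/- cortex and 2.23 to 5.17 CPM in WT, and Sp8, a transcription factor gene of bulb interneurons, was at 2.58 to 14.3 CPM in Npas3+/- cortex and 10.1 to 17.1 CPM in WT. The 17 striatal markers summed to 119, 151 and 213 CPM in Npas3+/- cortex and 310, 355 and 142 CPM in WT, with 16 lower (median -1.45). Leaving out Npas3+/- replicate 3 moved that median to -2.73, and leaving out WT replicate 2 moved it to -0.996. WT replicate 2 was the highest library for both the striatal sum and Reln, and Npas3+/- replicate 3 was the highest Npas3+/- library for both. WT replicate 3 had the lowest striatal sum in WT with Reln at 320 CPM, and WT replicate 1 had a striatal sum of 310 CPM with Reln at 245 CPM. In edgeR 0 genes of these 3 lists passed, with 6 of 20, 3 of 8 and 3 of 17 at an unadjusted p under 0.05, against 12.1% of all genes in either direction; limma-voom called 0. Among genes with an adjusted p, DESeq2 called 1 of 19 interneuron genes, 2 of 6 olfactory bulb genes and 0 of 16 striatal genes. The share over all genes was 3.4%. Across all genes tested, 51.8% were lower. The part of these cells in the lower Reln was not tested.

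The meningeal markers, from the membrane that lies over the Cajal-Retzius cells, summed to 53.7, 56.6 and 56.2 CPM in Npas3+/- cortex and 56.5, 52.0 and 55.8 CPM in WT. The 8 endothelial markers summed to 138 to 139 CPM in Npas3+/- cortex and 135 to 141 CPM in WT, and the 7 hippocampal markers to 172 to 225 CPM in Npas3+/- and 197 to 219 CPM in WT, all with overlap. The 13 markers of thalamus and hypothalamus summed to 15.9 to 17.01 CPM in Npas3+/- cortex and 19.3 to 20.97 CPM in WT, without overlap, most of it from Plekhg1, a guanine nucleotide exchange factor gene.

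**Figure D4:**
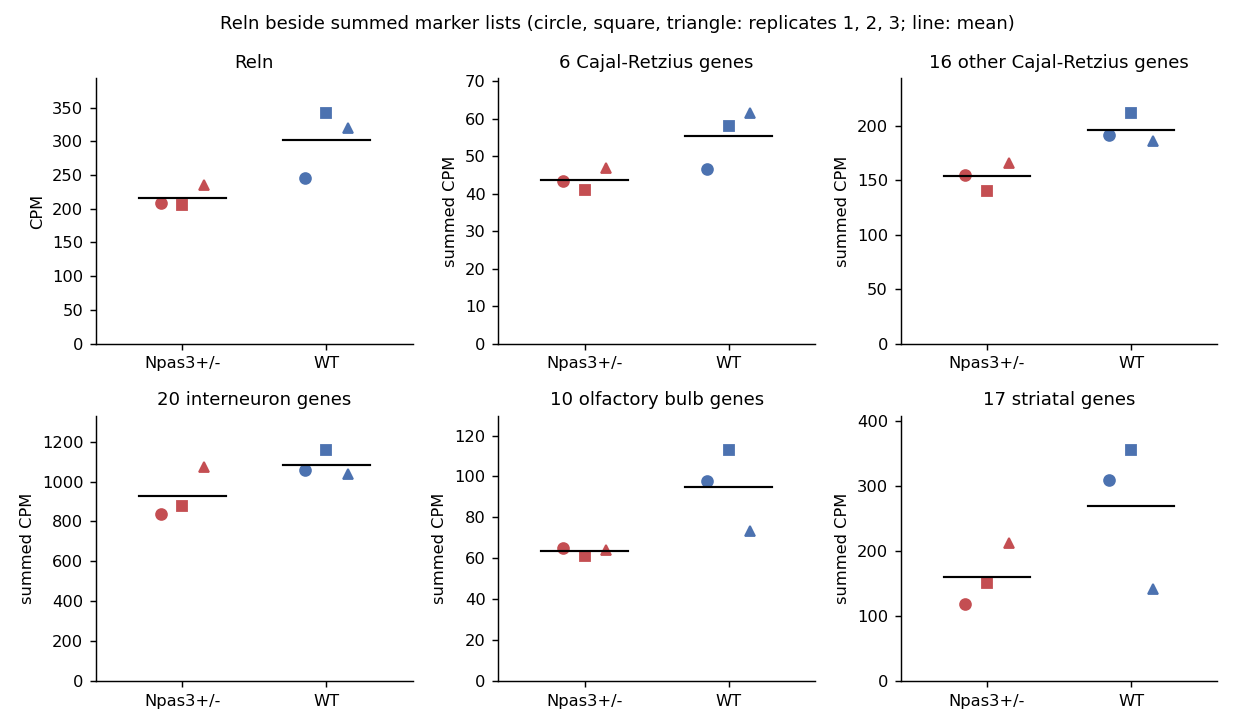
CPM of Reln and summed CPM of 5 gene lists in each library, Npas3+/- left and WT right; symbols mark the replicate number and lines the mean. Reln, the 16 other Cajal-Retzius genes and the olfactory bulb genes do not overlap between genotypes, while the striatal genes range from 119 to 213 CPM in Npas3+/- and from 142 to 355 CPM in WT. Of all genes tested, taken singly, 18.9% do not overlap in either direction, and no such share was computed for sums. Ndnf makes up most of the sum of the 6 Cajal-Retzius genes. Tshz1 and Pbx3 make up most of the difference in the olfactory bulb sum.

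In the rest of the reelin pathway the median fold changes were near that of all genes, -0.01. Of 27 genes for kinases, adaptors, cytoskeletal proteins and regulators of DAB1 turnover inside the cell, 9 were lower and 18 higher, with a median log2 fold change of 0.03. In edgeR 0 passed, with 3 at an unadjusted p under 0.05, a share near the 12.1% of all genes. DESeq2 called 1 of the 27, against 3.4% of all genes with an adjusted p, and limma-voom 0. The call was Socs7, which encodes a protein that takes part in the degradation of DAB1, at 191, 188 and 172 CPM in Npas3+/- cortex and 155, 146 and 156 CPM in WT. All Npas3+/- libraries were above all WT libraries (log2 fold change 0.27, SE 0.06, adjusted p 0.272 in edgeR and 0.0256 in DESeq2; 0.0256 to 0.601 over the alternatives). Dcx, the doublecortin gene of migrating neurons, averaged 1866 ± 65.9 CPM in Npas3+/- cortex, against 2033 ± 23.2 CPM in WT (SD, n = 3; log2 fold change -0.12, SE 0.04). Akt1, a kinase gene, had a log2 fold change of 0.15 (SE 0.05). The SRC-family kinase gene Fyn, whose product phosphorylates DAB1, was at 252 to 264 CPM in Npas3+/- cortex and 254 to 272 CPM in WT.

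Crk, whose adaptor protein binds phosphorylated DAB1, had an unusual distribution. It was at 148, 172 and 139 CPM in Npas3+/- replicates 1 to 3, and at 148, 49.0 and 47.3 CPM in WT replicates 1 to 3. WT replicate 1 was level with the Npas3+/- libraries, and the other WT libraries were well below them. The log2 fold change was 0.91 (SE 0.42, edgeR adjusted p = 0.442), and without WT replicate 1 it was 1.67 and passed in edgeR (adjusted p = 0.00895; 0.00895 to 0.745 over the alternatives). Its relative Crkl, an adaptor of the same kind, was at 60.3 to 66.4 CPM in Npas3+/- cortex and 57.9 to 71.1 CPM in WT.

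Of 19 co-receptors, other receptor ligands, reelin proteases and regulators of receptor turnover, 10 were lower and 9 higher (median -0.02). In edgeR 0 passed and 0 were at an unadjusted p under 0.05, against 12.1% of all genes at that p. DESeq2 and limma-voom called 0. The 2 smallest p-values belonged to Lrp1, a related receptor gene (log2 fold change 0.09, SE 0.04), and Thbs1, which encodes thrombospondin 1 (-0.20, SE 0.09). Of 17 genes that set or repress Cajal-Retzius fate, 14 were tested, 5 lower and 9 higher (median 0.05, from -0.00888 to 0.12 with 1 library left out). In edgeR 0 passed and 3 of the 14 were at an unadjusted p under 0.05, against 12.1% of all genes, while DESeq2 and limma-voom called 0. Pax6, a progenitor transcription factor gene, had a log2 fold change of -0.33 (SE 0.11), and Rspo2, Emx1 and Emx2 had 0.25 (SE 0.10), 0.24 (SE 0.10) and 0.26 (SE 0.15), the last 0.15 to 0.42 with 1 library left out. For Emx2, 8.79% of the exon length is shared with Emx2os on the opposite strand. Tbr1, a regulator of Reln in the mouse cortex, was at 252 to 303 CPM in Npas3+/- cortex and 252 to 278 CPM in WT.

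**Figure D5:**
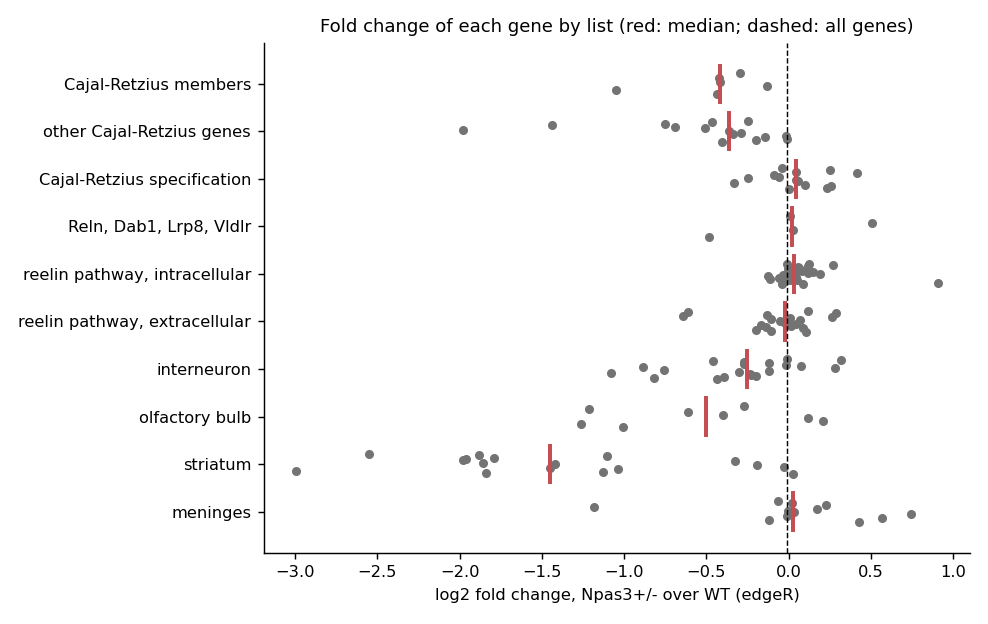
Log2 fold change of Npas3+/- over WT from edgeR for each gene (grey) by list, with the list median (red) and the median of all genes (dashed). The medians are -0.42 for the 6 Cajal-Retzius members, -0.36 for the other Cajal-Retzius genes and 0.03 for the intracellular reelin pathway.

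Among 12011 other genes with a mean of at least 5 CPM, those whose pattern over the 6 libraries was most like that of Reln were Ide, Nxph1, Gm12966, Acvr2a and Gm48239. Likeness was the root mean square difference of log2 CPM deviations, 0.046 to 0.072 for these genes against an SD of 0.284 for Reln itself. Nxph1, a neurexophilin gene expressed in interneurons, was at 36.7, 35.3 and 42.7 CPM in Npas3+/- cortex and 40.0, 59.0 and 52.8 CPM in WT. Ide, the insulin-degrading enzyme gene, was at 40.3, 39.6 and 43.2 CPM in Npas3+/- cortex and 46.0, 60.4 and 61.2 CPM in WT. The nearest to Trp73 were Yipf2, Pcdha2, Fuz, Sertm1 and 2410022M11Rik (0.127 to 0.147), and those to Lhx1 were Cdt1, Dusp22, Gm26582, Spp1 and Fibcd1 (0.299 to 0.347). These genes were found by their likeness and get no test.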

How the data were processed

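Total RNA of cortex from 3 Npas3+/- and 3 WT samples was sequenced, and a single table of gene-level read counts, not normalized, was deposited by the authors. The tools named are Trimmomatic 0.3.8, HISAT2 2.1.0 and featureCounts, with the build mm10, per the submitters' processing notes. Whether counting used strand or reads with several matches, and which annotation release it used, are not given in the sources used here. Columns were assigned to samples by stage, genotype and replicate number; the abbreviation NP was taken as Npas3+/-, the only genotype other than WT. Gene identifiers were matched without version to GENCODE M21 (53274 of 53379).

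The deposited counts entered edgeR 4.0.16 (R 4.3.3) unchanged, with filterByExpr, TMM scaling, genotype as the only term, and glmQLFit with glmQLFTest. Benjamini-Hochberg adjustment ran over the 21244 genes tested (threshold 0.05). Fold changes are given as log2 (Npas3+/- over WT); each SE is their size over the root of the F statistic. CPM are scaled by TMM, and TPM use the union of GENCODE exons. The biological coefficient of variation was 26.1%. The steps were tested on simulated counts. An exact two-sided permutation test of 3 libraries against 3 cannot go below 0.1 and was not used.

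The members and the gene lists were chosen with earlier results of these data known. Genes named from the other lists are those called by edgeR or DESeq2 and, for pathway and Cajal-Retzius lists, the 4 with the smallest p. A few others were named for their role, level, direction or position after their values were seen. They are Fyn, Crkl, Tbr1, Lmx1a, Cacna2d2, Zic1, Zic2, Zic4, Barhl2, Tbx21, Lbhd2, Cdhr1, Sp8, Doc2g, Shisa3, Lhx6, Neurod2, Plekhg1 and Magoh. Some genes that this rule names are not reported here. For the lists of cells and regions uncalled genes among those 4 are given at most by name or level, and for striatum, hippocampus, meninges, endothelium, thalamus and hypothalamus, and projection neurons those 4 are not given. Alternatives were each library left out, CPM over plain totals, a block for the replicate number, other filters on low counts, limma-voom (limma 3.58.1), DESeq2 1.42.0, and scaling by RLE or the upper quartile. A correction for transcript GC content (lowess, span 0.4), alone and with the block, was added after seeing the data, as were DESeq2, limma-voom and the filter of 1 CPM for list medians. Pearson r of log2 CPM between libraries was 0.969 to 0.974 within genotypes and 0.965 to 0.975 between them. Libraries of the same genotype were thus no more alike than libraries of different genotypes. Within genotypes the smallest chi-square between the counts of 2 libraries was 41.9 per gene, so no library repeated another of its genotype.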

Additional observations from a re-analysis of the deposited data

How the results depend on the processing

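The labels do not say whether replicate numbers pair the libraries. The deviations of same-numbered libraries from their genotype means correlated at 0.037, -0.030 and -0.088 for replicates 1 to 3. Differently numbered libraries gave -0.059 to 0.087. With 3 libraries per genotype these correlations cannot show whether the libraries were paired. With the replicate block, edgeR called 3 genes in place of 8, and 3 with the GC correction and the block; no member passed in either fit, and Reln stood at -0.47 and -0.48. DESeq2 called 511 genes and gave Reln -0.48 (adjusted p = 0.0145), the only member past the threshold under any alternative run. With 1 library left out, 7 to 16 genes were called, with 16 without WT replicate 1. The cause of these differences in number was not tested.

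The negative sign of Reln, Trp73, Ebf3, Nhlh2 and Ndnf and the positive sign of Lrp8 held under every alternative run. The negative sign of Lhx1 held wherever it was tested, but the filter of 1 CPM removed this gene. Vldlr turned to -0.00484 with upper-quartile scaling and -0.000067 with the filter of 1 CPM, and lay between -0.0549 and 0.0623 with 1 library left out. Dab1 lay between -0.0361 and 0.16 and Lhx5 between -0.45 and 0.10 with 1 library left out. The median of the 27 intracellular pathway genes was 0.00113 with the GC correction and 0.00385 with the correction and the block. With 1 library left out, the median of the 19 extracellular pathway genes ran from -0.0688 to 0.0329 and that of the other Cajal-Retzius genes from -0.56 to -0.23. The median of the 6 Cajal-Retzius members, without Lhx1 under the filter of 1 CPM, ran from -0.50 to -0.31 over all alternatives. With CPM over plain library totals the log2 ratio of means for Vldlr was -0.00498 and the other 9 members kept their sign. Lhx1, with 23 to 108 counts per library, and Lhx5, with 48 to 154, have the largest counting error among the members.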
